A study of Homo sapiens with 12 samples.

Results

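The genes described here encode 9 enzymes that make or clean up the building blocks of DNA, the deoxynucleotides: RRM1, RRM2, TYMS, TK1, DUT, DCTPP1, CTPS1, MTHFD1 and SHMT1. They were taken by symbol from a list, and all 9 were found among the 35337 genes of the expression table. All 9 also passed the filter on low values, which asked for 5 or more normalised read counts on average and left 13847 genes for testing.

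mRNA levels were measured by CEL-seq, which reads the 3′ end of polyadenylated transcripts, in EndoC-βH3 cells. This beta-like line came from a human fetal pancreas and was immortalised with hTERT and the SV40 large T antigen, and all cells carry a CreER recombinase that cuts both transgenes out once tamoxifen activates it. The 6 senescent samples had received 4-hydroxy tamoxifen for 3 weeks and the 6 non-senescent samples were untreated controls, so the drug and the loss of the transgenes always went together. The samples fall into batch A, with 2 per group, and batch B, with 4 per group, and all of them came from the same cell line, whose genotype the labels give as WT.

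Depth was 8873569 to 17106776 reads per library in batch A, against 4672924 to 7063264 in batch B. Senescent libraries were also deeper than the controls within each batch, without overlap. They held 13059934 and 17106776 reads against 8873569 and 12792199 in batch A, and 5973370 to 7063264 against 4672924 to 5746836 in batch B. All 12 beta cell markers passed the filter, with summed levels between 44280 and 60695 normalised read counts in the controls and between 87557 and 218632 in senescent cells. INS alone, at 11021 to 34331 against 49685 to 185508, made most of this difference. IAPP (846 to 2124 against 2906 to 8842) and PDX1 (2581 to 3121 against 3805 to 4785) were also higher without overlap. So was ISL1 (1469 to 1685 against 1750 to 2188). The other markers of this list, among them NEUROD1, NKX6-1 and SLC30A8, overlapped between the groups. SST, the hormone of delta cells, was also high, at 159785 to 287479 and 114932 to 142626 normalised read counts, so the beta cell label does not cover all that these cells express. The summed level of 13 markers of non-endocrine cells lay between 303 and 599 normalised read counts in the controls and between 249 and 489 in senescent cells, with PDGFRB and VWF at 0 reads. Of these markers the duct gene KRT19 was lower in senescent samples (75.9 to 157 against 236 to 378 normalised read counts) and the acinar gene CPA1 was higher (143 to 248 against 33.9 to 58.4), and their part in the results was not tested.

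Deoxynucleotides are made from ribonucleotides by ribonucleotide reductase, a complex of a large catalytic subunit (RRM1) and a small radical-bearing subunit (RRM2, or RRM2B in resting cells). Thymidine nucleotides need a further step, the methylation of dUMP by thymidylate synthase (TYMS) with a carbon unit delivered by folate, or salvage of thymidine by TK1. Several of these genes, among them RRM2, TYMS and TK1, are expressed mainly in S phase and are textbook targets of E2F factors, which Rb restrains.

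The stretches upstream of the 4 genes on which the results turn most, both reductase subunits and both sources of thymidylate, are shown first so that their levels can be read beside their promoters. Each is the 250 bases before the RefSeq transcription start on GRCh38.p14, printed 5′ to 3′ on the gene's own strand. Gene spans given below are from GENCODE, which can start elsewhere. The RRM2 window lies inside its span, and the TK1 window overlaps the upstream end of its span. Capitals mark words of 3 motifs searched on both strands: the E2F motif (the word TTCCCGC, its variant TTGGCGC, its variant TTCGCGC or its variant TTGCCGC), the CCAAT box, spelled as its name, and the cell cycle homology region or CHR (the word TTTGAA or its variant TTCGAA). RRM2 is shown from chr2:10122489-10122738 (plus strand), RRM1 from chr11:4094435-4094684 (plus strand), TYMS from chr18:657403-657652 (plus strand) and TK1 from chr17:78187205-78187454 (minus strand).
RRM2: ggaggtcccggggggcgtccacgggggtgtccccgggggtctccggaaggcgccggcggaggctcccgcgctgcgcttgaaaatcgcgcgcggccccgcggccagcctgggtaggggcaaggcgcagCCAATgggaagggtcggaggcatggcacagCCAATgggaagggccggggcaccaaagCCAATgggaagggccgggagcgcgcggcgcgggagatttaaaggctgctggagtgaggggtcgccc
RRM1: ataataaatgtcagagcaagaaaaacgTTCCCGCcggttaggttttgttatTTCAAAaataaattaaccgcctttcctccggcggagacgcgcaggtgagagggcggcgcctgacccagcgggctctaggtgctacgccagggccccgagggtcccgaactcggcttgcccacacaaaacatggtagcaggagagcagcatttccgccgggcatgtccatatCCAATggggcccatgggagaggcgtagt
TYMS: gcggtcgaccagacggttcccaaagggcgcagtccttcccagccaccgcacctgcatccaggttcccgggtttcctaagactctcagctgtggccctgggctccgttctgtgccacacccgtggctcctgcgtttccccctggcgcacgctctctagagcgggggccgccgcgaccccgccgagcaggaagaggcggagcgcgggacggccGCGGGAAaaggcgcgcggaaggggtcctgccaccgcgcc
TK1: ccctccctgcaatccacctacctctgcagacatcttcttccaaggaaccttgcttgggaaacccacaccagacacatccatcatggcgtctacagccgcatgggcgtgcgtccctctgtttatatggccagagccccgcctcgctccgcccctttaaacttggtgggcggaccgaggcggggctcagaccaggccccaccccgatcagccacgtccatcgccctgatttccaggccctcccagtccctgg

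The RRM2 window held 3 CCAAT boxes, whose first bases lay at -123, -93 and -66 from the start, and none of the E2F or CHR words. The RRM1 window held an E2F word at -223, a CHR word at -199 and a CCAAT box at -28. The TYMS window held an E2F word at -39. The TK1 window held none of these 3 motifs.

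Over all 9 enzymes, an E2F word was present in 2 windows, a CCAAT box in 4 and a CHR word in 1. Among 10388 windows of the same length before tested genes, 17.3% held an E2F word, 35.1% a CCAAT box and 9.64% a CHR word. A GC box (GGGCGG on either strand, left in lower case, which can share bases with an E2F word) was present in 5 of the 9 windows and in 66.4% of those of tested genes. Over all 27305 windows the shares were 11.0% for E2F, 33.0% for CCAAT, 14.6% for CHR and 42.3% for the GC box. These are matches of letters and were not tested as sites of any factor.

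mRNA of all 9 enzymes was lower in senescent than in non-senescent EndoC-βH3 cells. Falls ranged from 7.35-fold for TK1 to 1.54-fold for CTPS1, and the median log2 fold change of the 9 was -1.59, against 0.01 over all tested genes. A gene was called when limma gave an adjusted p under 0.1 and the fold change exceeded 1.5, and by this rule 9 of 9 were called lower and 0 higher, where 11.8% of all tested genes were called lower and 11.6% higher. Fold changes here are on the scale of log2(normalised read count + 1), with batch in the model, and errors of means are SDs over 6 samples. In bulk RNA, fewer cells that express a gene and less of its RNA per cell cannot be told apart.

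**Figure D1:**
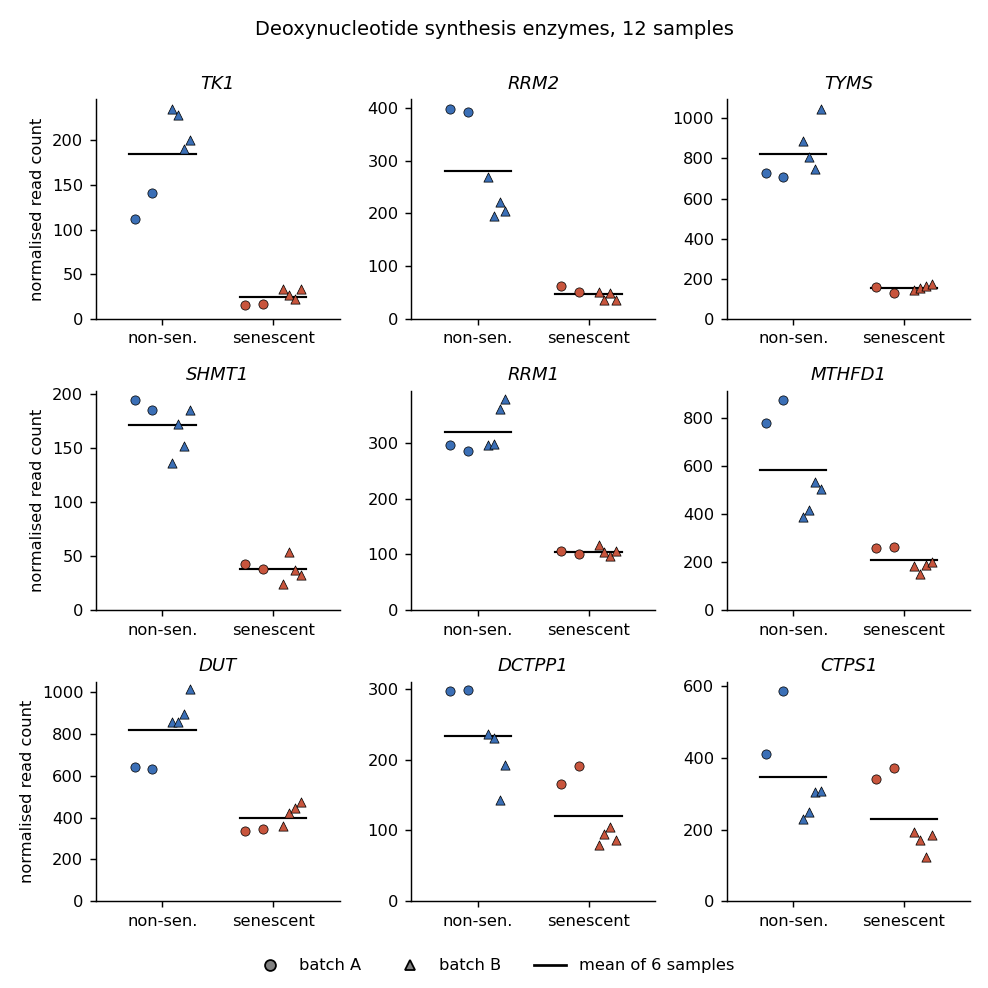
Normalised read counts (vertical axes, each starting at 0) of the 9 enzymes in each sample, with circles for batch A, triangles for batch B and a line at the mean of 6 samples per group. For 7 of the 9 genes every senescent sample lies below every non-senescent sample, while DCTPP1 and CTPS1 overlap between batches but not within them.

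Ribonucleotide reductase fell in both of its S phase subunits. RRM2 (chromosome 2, 10120698 to 10211725, plus strand), the small subunit that holds the tyrosyl radical, ranged from 195 to 398 normalised read counts in non-senescent samples with a median of 244, and from 34.6 to 61.9 with a median of 49.5 in senescent samples. The groups did not overlap, and the non-senescent samples of batch A (398 and 392) stood above those of batch B (195 to 268). Its mean fell from 280 ± 92.8 to 46.9 ± 10.5, a log2 fold change of -2.52 ± 0.14 (SE, limma adjusted p = 3.8e-10), so that 17.5% of the level remained.

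RRM1 (chromosome 11, 4094707 to 4138932, plus strand) encodes the large subunit, which carries the catalytic and the allosteric sites. It ranged from 285 to 380.2 normalised read counts with a median of 298 in non-senescent samples, and from 97.3 to 116 with a median of 105 in senescent samples. The senescent samples lay close together in both batches and far below the lowest control. The mean fell from 320.0 ± 40.4 to 105 ± 6.55, a log2 fold change of -1.59 ± 0.10 (SE, limma adjusted p = 1.7e-09).

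Because the subunits form a single enzyme, their ratio was followed in each sample. The log2 ratio of RRM2 to RRM1 was -0.90 to 0.46 in non-senescent and -1.57 to -0.78 in senescent samples. Its mean shifted from -0.25 ± 0.59 to -1.18 ± 0.34 (SD, n = 6), a change of -0.93 ± 0.17 (SE) that came to -1.30 for batch A and -0.74 for batch B (two-sided exact permutation within batch over 420 arrangements, adjusted p = 0.00476 over 2 ratios, the smallest p this design can give). The same test is among the 36 pairs of enzymes compared below, where its exact permutation p adjusted over those pairs was 0.0082. RRM2 mRNA was thus lowered further than RRM1 mRNA, although the ranges of the ratio overlapped across batches. These are changes of a ratio between groups, since read counts per gene do not give the amount of the subunits relative to each other.

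The alternative small subunit RRM2B, known as a p53 target that supplies deoxynucleotides outside S phase, moved the other way. Its level in batch B was 49.7 to 96.4 normalised read counts without and 181 to 235 with senescence, with no overlap. In batch A the counts were 50.6 and 65.2 in the controls and 61.1 and 58.0 in senescent samples, which overlapped. Over all samples the log2 fold change was 0.99 ± 0.22 (SE, limma adjusted p = 0.0018), made up of 0.05 ± 0.18 in A and 1.46 ± 0.19 in B, and the interaction of batch and group was 1.41 ± 0.33 (limma adjusted p = 0.035).

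The log2 ratio of RRM2 to RRM2B fell in both batches. It was 1.32 to 2.95 in non-senescent samples and -2.53 to 0.02 in senescent samples, without overlap. The change was -3.50 ± 0.22 (SE), as -2.84 in batch A beside -3.84 in batch B (same exact permutation test, adjusted p = 0.00476).

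**Figure D2:**
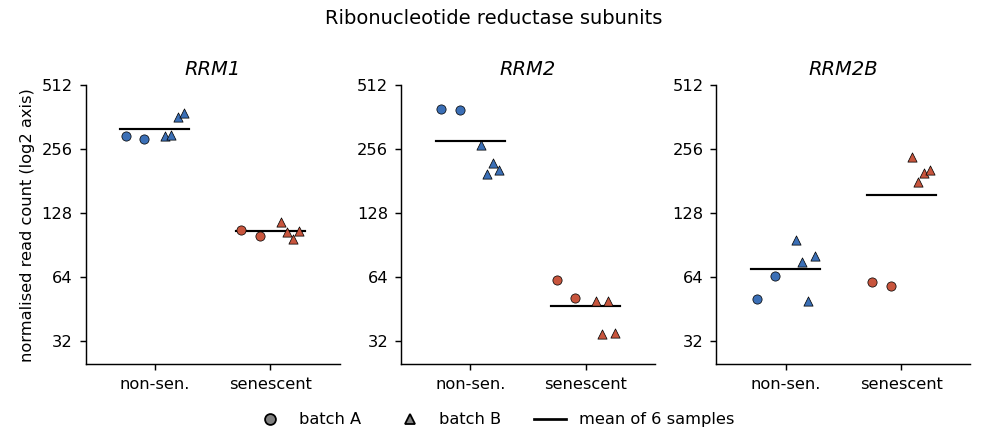
Normalised read counts on a log2 axis for the reductase subunits RRM1, RRM2 and RRM2B, with circles for batch A, triangles for batch B and a line at the mean of 6 samples. RRM1 and RRM2 are lower in every senescent sample, whereas for RRM2B only the 4 senescent samples of batch B lie above all non-senescent samples.

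The enzymes of thymidylate supply included the largest fall. TK1 (chromosome 17, 78174091 to 78187233, minus strand), the cytosolic kinase that salvages thymidine, ranged from 112 to 235 normalised read counts with a median of 195 in non-senescent samples, and from 15.3 to 33.6 with a median of 24.0 in senescent samples. Both groups were lower in batch A than in batch B, and no senescent sample came near a control. The mean fell from 184 ± 48.8 to 24.4 ± 7.80, a log2 fold change of -2.88 ± 0.15 (SE, limma adjusted p = 1.3e-10), and 13.6% of the level remained. The lowest senescent library held 19 TK1 reads, above the 3 reads that a count of 0 allows.

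TYMS (chromosome 18, 657653 to 673578, plus strand), which makes dTMP from dUMP, ranged from 708 to 1049 normalised read counts with a median of 777 in non-senescent samples. In senescent samples it ranged from 130.4 to 171 with a median of 157, and the groups were far apart in both batches. Its mean fell from 820.2 ± 129 to 153 ± 14.7, a log2 fold change of -2.41 ± 0.10 (SE, limma adjusted p = 5.4e-12).

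DUT (chromosome 15, 48331011 to 48343373, plus strand) encodes dUTPase, which supplies the dUMP used by TYMS and keeps uracil out of DNA. It ranged from 633 to 1011 normalised read counts with a median of 856 in non-senescent samples, and from 338 to 475 with a median of 390.3 in senescent samples. The groups did not overlap, but the fall was smaller than those of TK1 and TYMS. The mean went from 815 ± 149 to 398 ± 58.0, a log2 fold change of -1.03 ± 0.08 (SE, limma adjusted p = 3.5e-08), with 49.1% remaining.

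DCTPP1 and CTPS1, which act on cytosine nucleotides, had the smallest falls over both batches, although that of DCTPP1 was not told apart from that of DUT. DCTPP1 (chromosome 16, 30423615 to 30430030, minus strand) hydrolyses dCTP and modified forms of it. Batch A had 297 and 298 normalised read counts in non-senescent against 166 and 191 in senescent samples, and in batch B 236, 229.9, 143 and 193 against 80.0, 95.5, 105 and 85.9. The groups therefore overlapped over all 12 samples but in neither batch. The mean fell from 233 ± 60.0 to 121 ± 46.5, a log2 fold change of -0.98 ± 0.13 (SE, limma adjusted p = 1.8e-05).

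CTPS1 (chromosome 1, 40979300 to 41012565, plus strand) makes CTP from UTP, a step upstream of the deoxynucleotides. In batch A it was 411 and 587 normalised read counts in the controls and 340.3 and 373 in senescent samples, and in batch B 229, 248, 305 and 307 against 193, 171, 122 and 184. The batches differed more than the groups did, but within each batch the groups did not overlap. The mean fell from 348 ± 133 to 231 ± 101, a log2 fold change of -0.62 ± 0.13 (SE, limma adjusted p = 0.0010). This value lay near the fold limit of 1.5, and the call was lost without control A2 (-0.58), control B3 (-0.58), control B4 (-0.58) or senescent B3 (-0.53), in batch A alone (-0.46, adjusted p = 0.031) and without the batch term (adjusted p = 0.20).

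The folate enzymes on the list fell by intermediate to large amounts. SHMT1 (chromosome 17, 18327860 to 18363563, minus strand), the cytosolic hydroxymethyltransferase that loads folate with the carbon unit of serine, ranged from 136 to 194 normalised read counts with a median of 178 in non-senescent samples. In senescent samples it ranged from 24.2 to 53.5 with a median of 37.3, again with no overlap. The mean fell from 171 ± 22.5 to 37.8 ± 9.81, a log2 fold change of -2.17 ± 0.17 (SE, limma adjusted p = 1.9e-08).

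MTHFD1 (chromosome 14, 64388031 to 64463457, plus strand) encodes a cytosolic enzyme that interconverts folate-bound carbon units. It ranged from 387 to 875 normalised read counts with a median of 517 in non-senescent samples, and from 148 to 264 with a median of 193 in senescent samples. Both groups were higher in batch A, and no value was shared between groups. The mean fell from 582 ± 200 to 206 ± 45.2, a log2 fold change of -1.45 ± 0.11 (SE, limma adjusted p = 1.0e-08).

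Ordered by the size of the fall, the enzymes ran TK1, RRM2, TYMS, SHMT1, RRM1, MTHFD1, DUT, DCTPP1 and CTPS1. All 36 pairs were compared by the difference of their log2 values in each sample, with a two-sided exact permutation within batch and adjustment over the 36 pairs, and 28 differed at an adjusted p under 0.05. Between neighbours in this order, the fall of SHMT1 exceeded that of RRM1 by 0.58 ± 0.19 (SE, log2; adjusted exact permutation p = 0.032) and the fall of MTHFD1 exceeded that of DUT by 0.43 ± 0.13 (adjusted exact permutation p = 0.027). TK1 fell further than each of the other 8 except RRM2, from which it differed by 0.36 ± 0.19 (adjusted exact permutation p = 0.097).

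The remaining pairs that did not pass had differences of log2 fold changes of -0.11 ± 0.18 for RRM2 against TYMS, -0.35 ± 0.27 for RRM2 against SHMT1 and -0.24 ± 0.16 for TYMS against SHMT1 (SE). Those of RRM1 against MTHFD1 (-0.14 ± 0.11), MTHFD1 against DCTPP1 (-0.47 ± 0.23), DUT against DCTPP1 (-0.05 ± 0.14) and DCTPP1 against CTPS1 (-0.35 ± 0.24) did not pass either, with adjusted exact permutation p from 0.095 to 0.74 over these 7 pairs. The order within each of these pairs, and between TK1 and RRM2, is therefore not resolved with 6 samples a group.

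**Figure D3:**
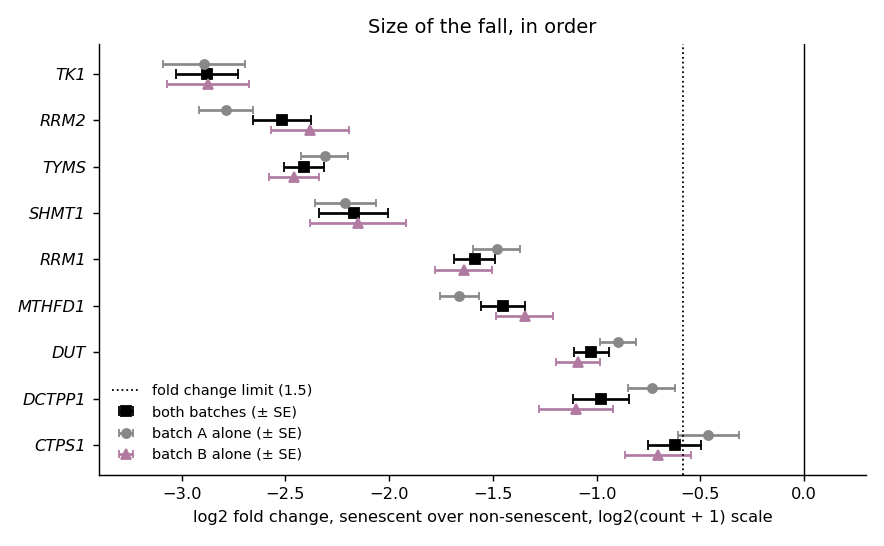
Log2 fold changes of senescent over non-senescent samples for the 9 enzymes, with SE bars, from both batches together (squares), batch A alone (circles) and batch B alone (triangles), beside the fold limit of 1.5 (dotted) and 0 (solid). All values lie below 0 in both batches, and only CTPS1 in batch A (-0.46) lies inside the fold limit.

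The falls were present in both batches. All 9 genes were lower without overlap within batch A and within batch B, which held for 11.9% of all tested genes. The fall was larger in batch B for 5 of them and larger in batch A for the other 4, with differences between the batches of -0.37 for DCTPP1 to 0.40 for RRM2 on the log2 scale. The interaction of batch and group passed limma's adjusted p of 0.1 for 0 of the 9 (adjusted p 0.52 to 0.99). By the same test 0 of the 9 had an unadjusted p under 0.05. Of all tested genes 4.21% passed, so 0 of 9 lies close to that share. Batch A had only 2 samples per group, which limits this comparison.

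The proliferation marker MKI67 and the CDK inhibitor CDKN1A (p21) showed the state of the samples beside these values. MKI67 went from 537 ± 138 to 73.6 ± 11.0 normalised read counts, a log2 fold change of -2.83 ± 0.14 (SE, limma adjusted p = 1.3e-10). CDKN1A went from 45.1 ± 20.2 to 981 ± 661, a log2 fold change of 3.92 ± 0.35 (SE, limma adjusted p = 1.1e-07). By the interaction test in limma both responses differed between batches, with -3.45 in A and -2.51 in B for MKI67 (adjusted p = 0.022) and 2.18 in A and 4.78 in B for CDKN1A (adjusted p = 0.0019).

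Around the 9 enzymes, 61 other genes of nucleotide and folate metabolism were followed in 6 lists, of which 59 passed the filter. Of these, 21 were called lower, 3 higher and 35 neither, with a median log2 fold change of -0.36. These calls were 35.6% lower and 5.08% higher, against 11.8% and 11.6% of all tested genes. DTYMK, whose product acts next to TYMS in the pathway, had the largest fall of its list. ALDH1L2 and CDA did not pass the filter, CDA with 0 reads in every library.

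Of 13 tested genes of the folate cycle, 4 were called lower and 0 higher, with a median log2 fold change of -0.23. The shares were 30.8% lower and 0% higher, against 11.8% and 11.6% of all tested genes. SHMT2, the mitochondrial form of SHMT1, fell by 1.12 ± 0.13, the reduced folate carrier SLC19A1 by 0.79 ± 0.29 (5 to 56 reads) and the folate polyglutamating enzyme FPGS by 0.63 ± 0.24 (log2, SE). The call of FPGS was lost without any of 4 libraries (controls B2 and B4, senescent B1 and B3) and by edgeR and DESeq2, and its log2 fold change turned from -1.03 for batch B to 0.18 for batch A. That of SLC19A1 was lost for batch B alone (-0.68 ± 0.44, SE), without the batch term and with a pseudocount of 8.

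Among 10 nucleotide kinases, 1 was called lower and 2 higher (10% and 20%, against 11.8% and 11.6% of all tested genes), with a median log2 fold change of -0.22. DTYMK, which phosphorylates the dTMP made by TYMS and TK1, fell from 704 ± 196 to 175 ± 20.3 normalised read counts, a log2 fold change of -1.96 ± 0.13 (SE, limma adjusted p = 2.1e-09) without overlap. NME3, a nucleoside diphosphate kinase, rose by 1.01 ± 0.16 and the guanylate kinase GUK1 by 0.61 ± 0.13 (log2, SE), and the call of GUK1 was lost without controls B2 or B3 or senescent B1 or B4 and for batch A alone (0.31, against 0.76 for batch B). Of the deoxynucleoside kinases, the cytosolic DCK fell by 0.89 ± 0.14, whereas the mitochondrial TK2 and DGUOK had log2 fold changes of 0.13 ± 0.14 and 0.02 ± 0.09 (limma adjusted p 0.51 and 0.86).

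Enzymes that break down or clean the nucleotide pools moved unequally. Of 11 tested, 7 were called lower and 0 higher, with a median log2 fold change of -0.75. As shares, 63.6% were lower and 0% higher, against 11.8% and 11.6% of all tested genes. NUDT1, which removes oxidised purine nucleotides, fell by 1.86 ± 0.21 (log2, SE) and the purine nucleoside phosphorylase PNP by 0.75 ± 0.15. The deoxyribonucleotidases NT5C and NT5M fell by 0.75 ± 0.19 and 0.74 ± 0.28, the uridine phosphorylase UPP1 by 0.91 ± 0.28 and the adenosine deaminase ADA by 2.02 ± 0.59, the last from 14.2 ± 11.0 to 2.58 ± 2.74 normalised read counts with 0 to 50 reads per library. At so few reads the fitted change of ADA depended on the settings and was -2.86 to -0.94 (log2) over the alternatives. The call of ADA was lost for batch B alone (-1.59 ± 0.84, SE), where the groups overlapped. The call of NT5M was lost without control B3 or senescent B2 or B3. Batch A alone did not give the calls of PNP (-0.27, against -0.99 for batch B) and NT5C (-0.46, against -0.89). DCTD, which deaminates dCMP to dUMP, went the other way, from 206 to 272 normalised read counts in controls to 305 to 379.9 in senescent samples without overlap, and its log2 fold change of 0.51 ± 0.10 (SE, limma adjusted p = 0.00044) lay under the fold limit. SAMHD1, the hydrolase that degrades all deoxynucleoside triphosphates in resting cells, lay at 161 to 294 normalised read counts in controls and 148 to 244 in senescent samples, which overlapped (log2 fold change -0.13 ± 0.10, SE, limma adjusted p = 0.34).

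Of 6 other genes of pyrimidine synthesis and salvage, 2 were called lower and 0 higher, with a median log2 fold change of -0.38. These were 33.3% and 0% of the list, where all tested genes gave 11.8% and 11.6%. CAD, which carries the first steps of the pathway, fell by 0.62 ± 0.16 and the uridine kinase UCK2 by 0.64 ± 0.11 (log2, SE), and the CAD call was lost without control B2 or senescent B2, the UCK2 call without senescent B2. The CAD value was -0.18 for batch A alone, where the call was lost, and -0.84 for batch B alone. For UCK2 the values were -0.57 for batch A alone and -0.67 for batch B alone. Its call was lost for batch A alone and without the batch term. CTPS2, the second CTP synthase, had a log2 fold change of 0.04 ± 0.15 (limma adjusted p = 0.86).

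In purine synthesis, 6 of 15 genes were called lower and 0 higher, with a median log2 fold change of -0.47. That was 40% lower and 0% higher, against 11.8% and 11.6% of all tested genes. PRPS2, which makes the ribose precursor, fell by 1.40 ± 0.12 (log2, SE), the committing enzyme PPAT by 0.83 ± 0.16, PFAS by 0.95 ± 0.18, PAICS by 0.89 ± 0.10 and the salvage enzyme HPRT1 by 0.74 ± 0.09. PRPS1, the paralog of PRPS2, had a log2 fold change of 0.52 ± 0.11 (SE, limma adjusted p = 0.0015), under the fold limit, and was higher without overlap within each batch. IMPDH1, of the guanine branch, had a log2 fold change of -1.22 ± 0.28 over both batches, but the value of batch A was 0.06 and that of batch B -1.86 (interaction, limma adjusted p = 0.0088).

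**Figure D4:**
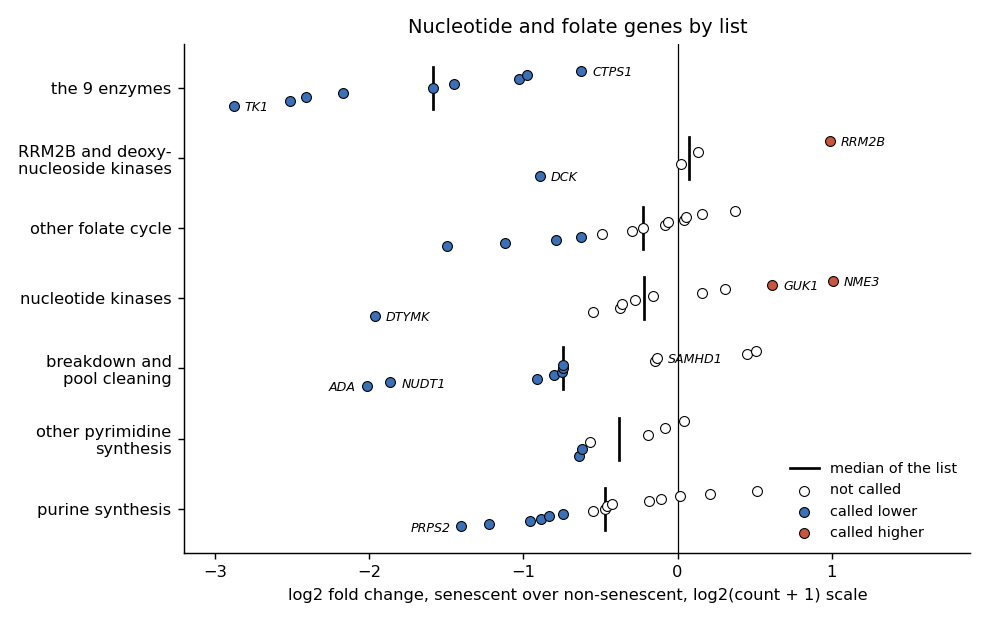
Log2 fold changes of senescent over non-senescent samples (horizontal axis) for each tested gene of the 9 enzymes and of 6 lists of nucleotide and folate metabolism, filled where called lower (blue) or higher (red), with a bar at the median of each list. The 9 enzymes have a median of -1.59, and the other lists have medians from -0.75 to 0.08.

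The 5 other genes whose values followed the mean of the 9 enzymes most closely, over 12 samples and after centring within batch, were DSN1 of the kinetochore, the alpha tubulin TUBA1B, the replication clamp PCNA, the islet calcium sensor SCGN and the transcriptional regulator HES6. Their Pearson's r was 0.997 to 0.998, and it describes mainly the gap between the groups that all of these genes share. Of the enzymes themselves, TYMS followed the mean of the other 8 most closely (r = 0.995) and CTPS1 least (r = 0.817), in the same libraries.

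Several of these genes overlap others in the annotation, and the use of strand in counting is not given in the sources used here. ENOSF1, which runs antisense to TYMS, had 132 ± 32.2 normalised read counts in controls and 118 ± 23.3 in senescent samples (log2 fold change -0.15 ± 0.14, SE, limma adjusted p = 0.44). The opposite-strand neighbours ZNF771 (DCTPP1), ZBTB25 (MTHFD1) and SMCR8 (SHMT1) had log2 fold changes of 0.13 ± 0.19, -0.28 ± 0.14 and -0.19 ± 0.15, and none of them passed (limma adjusted p 0.64, 0.12 and 0.33). The 8 named pseudogenes of DUT held 0 to 16 reads each over all libraries.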

How the data were processed

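Per the labels and the study's methods, CEL-seq libraries of 12 samples were trimmed with cutadapt, quantified with Salmon 0.13.1 on GRCh38 and normalised with DESeq2; the annotation, strand setting and use of molecular identifiers are not given in the sources used here. The deposited values are a signal, reads per gene divided by a size factor per sample, called normalised read counts here. The table also holds the authors' own comparison (log2 fold changes and errors, a test statistic that is a score, p-values and adjusted p-values), and none of it was used. Of 196021 deposited values above 0, 100% were whole multiples of the value of 1 read (tolerance 0.001), so whole reads were recovered; the depth is given with the results, and floors of 3 reads cover counting error only.

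Genes averaging 5 or more normalised read counts were fitted with limma 3.58.1 (R 4.3.3) on log2(value + 1), with intensity trend, batch and group, and Benjamini-Hochberg adjustment over all tested genes. The limits (adjusted p under 0.1, fold change over 1.5) and the batch term follow the study. The log scale understates the change of low genes. Batch was read from the letter in the sample titles. edgeR 4.0.16 and DESeq2 1.42.0 on whole reads, other scalings, pseudocounts, filters, single batches and fits without 1 library were alternatives, and the procedure was tested on simulated data. Ratios and pairs were tested by exact permutation within batch (Python 3.11.15, numpy 2.4.6, pandas 2.3.3).

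The 9 enzymes, the gene lists and the tests were chosen with earlier results of these data known. Named in the text are the 9 enzymes, RRM2B and SAMHD1, the called genes of the other lists (some genes that the lists count are not reported here singly), MKI67 and CDKN1A, and the 5 genes most like the mean of the enzymes (mean of at least 20). Also named, chosen after their values were seen, are TK2, DGUOK, CTPS2, DCTD, PRPS1 and NME4, and the cell type markers and overlapping genes. 2 purine genes were matched by older symbols. Gene positions are from GENCODE on GRCh38 and promoters from RefSeq, GRCh38.p14; all 9 enzymes matched. Libraries of the same group differed by more than sampling noise (chi-square per degree of freedom 4.28 to 8.05). The methods speak of replicates in independent batches, and where samples of a batch share a culture, p-values measure only the spread between these samples.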

Additional observations from a re-analysis of the deposited data

Results flagged for a closer look

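The senescence response differed between the batches for 5 of the genes followed here beside the 9 enzymes, by limma's interaction of batch and group (adjusted p under 0.1). The values are the log2 fold change in batch B minus that in batch A. RRM2B had a difference of 1.41, with a rise in batch B and a value near 0 in batch A. IMPDH1 had a difference of -1.92, with a fall in batch B and a value near 0 in batch A. NME4, a mitochondrial nucleoside diphosphate kinase, had a difference of -0.73 (0.11 in A, -0.62 in B, interaction adjusted p = 0.073). MKI67 had a difference of 0.94, with the larger fall in batch A. CDKN1A had a difference of 2.60, with the larger rise in batch B. The batches also differed in depth and in the number of samples, and the part of these was not tested. Among 48 groups of values for 12 genes (each group's 6 samples, and its 4 samples of batch B), 0 samples stood apart from the rest of their group by Dixon's test.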

How the results depend on the processing

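Each enzyme was refitted under 26 alternatives. Of the 234 log2 fold changes, 228 kept their direction and call, 6 lost the call and 0 reversed; all 6 were of CTPS1 and are given with its values. The number of enzymes called lower was 8 to 9 under every alternative, also without any 1 library, and that of the other nucleotide and folate genes was 15 to 24 lower (18 to 22 without 1 library) and 2 to 4 higher (2 to 3 without 1 library). Of those 24 calls, 10 were kept throughout and 14 were lost under at least 1 alternative. Pairs of enzymes that differed numbered 21 to 28 (23 to 28 without 1 library); batch A alone gave no value, since the smallest exact permutation p there is 0.333. The change of the RRM2 to RRM1 ratio was -1.30 to -0.74 (-1.02 to -0.85 without 1 library) and that of the RRM2 to RRM2B ratio -3.84 to -2.84 (-3.64 to -3.35 without 1 library). The interaction count of the enzymes was 0 in all 8 alternatives run for it.

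Groups share replicate numbers, but samples with the same number did not deviate together (correlations of -0.05 to 0.02), and none matched its own number best, so the numbers were not taken as pairs. With a replicate block, 9 enzymes were called lower, 21 and 3 other genes lower and higher, and 26 pairs differed; no call of an enzyme changed.

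Scaling every library to the same total moved the median of all genes to -0.09 and gave 1225 higher and 2092 lower genes, 36.9% higher among calls, instead of 1605 and 1632 (49.6%). The enzymes were called lower under this and the other scalings. Without the batch term 1037 and 1106 genes were called. The lower depth of batch B limits genes with few reads, such as ADA, SLC19A1 and UPP1.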
